A study of Mus musculus with 4 samples.

Results

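The genes described here are 10 genes of CD8 T cells and cytotoxic lymphocytes: the co-receptor genes Cd8a and Cd8b1, the granule genes Gzma, Gzmb, Gzmk, Prf1 and Nkg7, the cytokine gene Ifng, and the transcription factor genes Eomes and Tbx21. They were taken by symbol from the 48526 gene identifiers of the count tables, and all 10 were found once. They were read in 4 liver tumours of C57BL/6 mice, 2 from mice given PBS (PBS 1 and PBS 2) and 2 from mice fed Akkermansia muciniphila (AKK 1 and AKK 2), a mucin-degrading gut bacterium. Feeding with 5000000000 colony-forming units or PBS began 2 weeks ahead of the MCD diet (lacking methionine and choline), which produces fatty liver, and it went on through 2 weeks of that diet. Mice of both groups were on this diet and then had cells of the mouse hepatoma line RIL-175, labelled with luciferase, placed in the liver, so every tumour here comes from an implanted line. Feeding was paused for 6 days after the operation. Age is not given in the sources used here.

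A CD8 T cell recognises peptide on MHC class I through its T cell receptor, with the CD8 alpha and beta chains binding the MHC molecule beside it. An activated cell kills by releasing granules: perforin (Prf1) opens the membrane of the target, and granzymes, which are serine proteases, enter and cut proteins inside it. Natural killer (NK) cells use the same granules without CD8, and both cell types secrete interferon gamma under the control of the T-box factors T-bet (Tbx21) and eomesodermin (Eomes). In a liver tumour these genes are commonly read as a measure of killer lymphocytes.

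The upstream sequences of the granule genes Gzma, Prf1, Gzmb and Nkg7 are shown as background, and that of Gzmk is not printed. Any part of these sequences in the levels below was not tested. RefSeq (GRCm38.p6) gave the 250 bases before the start site for 9 of the 10 genes, all but Cd8b1. The windows lie at chr13:113100982-113101231 (minus strand) for Gzma, chr10:61297586-61297835 (plus strand) for Prf1, chr14:56262335-56262584 (minus strand) for Gzmb and chr7:43436888-43437137 (plus strand) for Nkg7. These positions belong to RefSeq, since the build behind the counts is not given in the sources used here. Capitals mark matches, 5′ to 3′ on the gene's strand, to the core bound by RUNX factors (TGTGGT, or ACCACA on the other strand) and to a T-box element (GGTGTGA, or TCACACC on the other strand). No match overlaps another.
Gzma: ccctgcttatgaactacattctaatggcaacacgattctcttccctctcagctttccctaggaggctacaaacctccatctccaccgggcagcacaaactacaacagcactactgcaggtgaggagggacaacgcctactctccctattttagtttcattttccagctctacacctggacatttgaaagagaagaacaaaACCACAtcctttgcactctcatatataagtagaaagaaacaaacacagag
Prf1: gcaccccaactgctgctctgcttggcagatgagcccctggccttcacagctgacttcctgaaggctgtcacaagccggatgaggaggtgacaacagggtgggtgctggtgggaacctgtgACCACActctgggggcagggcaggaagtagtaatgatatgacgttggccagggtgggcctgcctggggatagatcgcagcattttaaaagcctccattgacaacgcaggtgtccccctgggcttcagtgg
Gzmb: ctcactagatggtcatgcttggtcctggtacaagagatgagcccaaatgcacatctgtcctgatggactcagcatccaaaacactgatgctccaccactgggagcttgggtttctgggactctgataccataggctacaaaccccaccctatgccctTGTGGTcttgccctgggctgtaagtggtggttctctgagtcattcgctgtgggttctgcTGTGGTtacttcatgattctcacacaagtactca
Nkg7: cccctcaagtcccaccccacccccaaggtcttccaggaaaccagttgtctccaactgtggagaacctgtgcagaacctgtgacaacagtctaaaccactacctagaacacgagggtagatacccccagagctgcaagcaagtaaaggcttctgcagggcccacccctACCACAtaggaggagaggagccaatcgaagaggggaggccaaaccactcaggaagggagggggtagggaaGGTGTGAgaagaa
The RUNX core was found in these 4 of 9 windows, once in Gzma, Prf1 and Nkg7 and at 2 places in Gzmb. It is present in 14% of 32851 windows of the same length over all genes. The T-box element was found in 2 of 9 windows, Nkg7 and Gzmk, against 3.33% of all windows. A match is a description of letters and not of binding.

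Reads on genes numbered 52500328 and 48912489 in PBS 1 and PBS 2 and 55360237 and 59027227 in AKK 1 and AKK 2. Levels are given as CPM, the reads on a gene scaled to the library's total with TMM factors. Differences were tested with edgeR's quasi-likelihood test over the 17479 genes that passed a filter on low counts, with Benjamini-Hochberg adjustment at 0.05. The libraries differ widely in other cells. The summed level of 10 hepatocyte genes was 1.18 and 2.96 CPM in PBS against 501 and 148 CPM in AKK. DESeq2 called 10 of 10 as higher, where it called 5.02% of all genes, and edgeR called 1 of the 10. The summed level of 6 skeletal muscle genes was 233 CPM in PBS 1 and 2.16 to 6.92 CPM elsewhere. Genes of all leukocytes (6 of 6 kept) summed to 126 to 160 CPM in PBS and 139 to 217 CPM in AKK. The names of the deposited tables follow another pattern in each group. If that marks 2 cohorts, the feeding and the cohort cannot be told apart. In bulk tissue, fewer cells of a type and less RNA per cell cannot be told apart either.

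Of the 10 genes, 9 passed the filter and 0 were called in edgeR, where 0.00572% of all genes tested were called. DESeq2 also called 0 of the 9 (5.02% of all genes) and limma-voom 0 (0% of all genes). At an unadjusted p under 0.05 edgeR had 0 of the 9 as higher (6.70% of all genes) and 0 as lower (8.62%). Among the 9, 6 fold changes were positive and 3 negative, with a median log2 fold change (AKK minus PBS) of 0.64 against 0.02 over all genes tested. The 3 negative genes were Gzma, Gzmb and Prf1, and the sign of Gzmb turned with 1 library left out. Adjusted p-values in edgeR ran from 0.379 (Gzma) to 0.801 (Ifng). The groups did not overlap for Gzma and Prf1, which were lower in AKK (2 of 9, against 24.7% of all genes), and for Eomes, which was higher (1 of 9, against 26.7% of all genes). These shares are near the background and are not a result about the genes.

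Replicate tumours of a group differed by more than the Poisson intervals of their counts in most of these genes. Exact 95% Poisson intervals of PBS 1 and PBS 2 did not overlap for 7 of 10 genes, and those of AKK 1 and AKK 2 for 7 of 10. Such intervals cover counting error only. The reads carry no molecular identifiers, so copies of the same molecule are counted separately and the intervals may be too narrow. PBS 1 was the lower PBS library for 8 of 10 genes, all but Gzmk and Eomes. The matching shares over all genes were not taken, so these counts are not a result about the 10 genes. The 10 genes summed to 13.2 and 21.0 CPM in PBS 1 and PBS 2 and to 20.0 and 18.7 CPM in AKK 1 and AKK 2, so the groups overlapped. Eomes made up a large part of this sum, and without it the other genes summed to 6.80 and 15.5 CPM in PBS against 12.0 and 7.89 CPM in AKK.

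**Figure D1:**
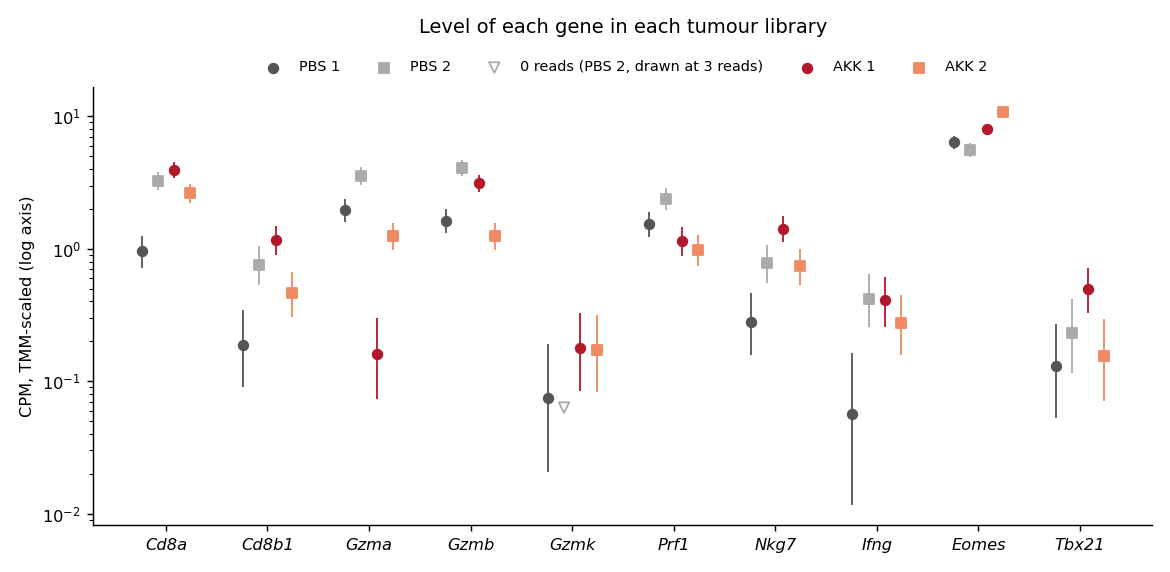
Level of each gene in each of the 4 tumour libraries, in TMM-scaled CPM on a log axis, with exact 95% Poisson intervals (counting error only). The AKK points lie below both PBS points for Gzma and Prf1 and above them for Eomes, while PBS 1 is the lowest library for Cd8a, Cd8b1, Nkg7, Ifng and Tbx21.

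Cd8a encodes the alpha chain of the co-receptor, which also occurs as an alpha-alpha dimer on some dendritic and NK-like cells. The levels were 0.956 CPM for PBS 1 (51 reads), 3.26 for PBS 2 (155), 3.93 for AKK 1 (222) and 2.62 for AKK 2 (153). PBS 1 stood low and the 3 other tumours lay close together, so PBS 2 fell within the AKK range. The log2 fold change was 0.64 (SE 0.66, edgeR adjusted p = 0.653). It was 0.00 without PBS 1 and 1.74 without PBS 2.

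Cd8b1 encodes the beta chain, which on the surface of conventional CD8 T cells pairs with the alpha chain. It read 0.187, 0.757, 1.17 and 0.462 CPM in PBS 1, PBS 2, AKK 1 and AKK 2, from 10, 36, 66 and 27 reads. The groups overlapped (log2 fold change 0.79, SE 0.83, edgeR adjusted p = 0.658), and the change was -0.01 without AKK 1. Of the reads on either co-receptor gene, Cd8b1 held 16.4%, 18.8%, 22.9% and 15% in the same order. Exact 95% binomial intervals of these shares overlapped in all 4 libraries, from 8.15 to 28.1% in PBS 1 to 18.2 to 28.2% in AKK 1. RefSeq places Cd8b1 and Cd8a next to each other among protein-coding genes.

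Cd8a was set against the genes of T cells at large. Its share of reads on Cd8a and Trac, the constant region of the T cell receptor alpha chain, was 51.0%, 62.0%, 51.6% and 50.8% in PBS 1, PBS 2, AKK 1 and AKK 2. PBS 2 lay highest and the other 3 were close together, inside each other's intervals. Against Cd4, the co-receptor of helper T cells and also of some macrophages, the Cd8a share was 53.7% (95% interval 43.2 to 64.0%) in PBS 1 and 88.1% (82.3 to 92.5%) in PBS 2. It was 74.2% (68.9 to 79.1%) in AKK 1 and 71.2% (64.6 to 77.1%) in AKK 2. The PBS tumours thus enclosed the AKK tumours on both sides.

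Among the granule genes, Gzma encodes granzyme A, a trypsin-like granzyme abundant in NK cells and effector T cells. PBS 1 had 1.95 CPM (104 reads), PBS 2 3.53 (168), AKK 1 0.159 (9) and AKK 2 1.25 (73). Both AKK tumours lay below both PBS tumours, and AKK 1 was by far the lowest. The log2 fold change was -1.95 (SE 0.94, edgeR adjusted p = 0.379; DESeq2 adjusted p = 0.240). It was -1.12 without AKK 1 and -4.09 without AKK 2, so its size rested on AKK 1 while its sign did not.

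Prf1 encodes perforin. Its level was 1.54 CPM for PBS 1 (82 reads), 2.38 for PBS 2 (113), 1.15 for AKK 1 (65) and 0.976 for AKK 2 (57). Both AKK tumours again lay below both PBS tumours. The gap between the nearest libraries, PBS 1 and AKK 1, was within counting error, since their intervals of 1.22 to 1.91 and 0.888 to 1.47 CPM overlapped. The log2 fold change was -0.88 (SE 0.48, edgeR adjusted p = 0.420), and it ran from -1.16 to -0.56 with 1 library left out.

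Gzmb encodes granzyme B, which cleaves after aspartate and activates caspases. Its level was 1.63 CPM for PBS 1 (87 reads), 4.10 for PBS 2 (195), 3.11 for AKK 1 (176) and 1.25 for AKK 2 (73). The highest and the lowest AKK values lay inside and below the PBS range, so there was no separation. Its log2 fold change of -0.39 (SE 0.67, edgeR adjusted p = 0.795) turned positive without PBS 2 (0.38) and without AKK 2 (0.11). Mast cells can also make granzyme B. The 9 mast cell genes (8 kept, 0 called in edgeR) summed to 7.57 and 8.26 CPM in PBS and 59.8 and 5.00 CPM in AKK 1 and AKK 2. The defining genes Cpa3, Mcpt4 and Mcpt1 were all read in each library, and their part in the Gzmb levels was not tested.

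Gzmk encodes granzyme K, a granzyme of memory-like T cells. Its reads numbered 4 (PBS 1), 0 (PBS 2), 10 (AKK 1) and 10 (AKK 2), and it did not pass the filter. The 0 reads of PBS 2 allow up to 0.0631 CPM if 3 reads are taken as the limit, and the AKK levels were 0.177 and 0.171 CPM. Both AKK tumours lay above both PBS tumours. The interval of PBS 1 (0.0204 to 0.192 CPM) overlapped those of AKK 1 (0.0848 to 0.325 CPM) and AKK 2 (0.0821 to 0.315 CPM), and that of PBS 2 (0 to 0.0776 CPM) overlapped neither. Gzma and Gzmk are neighbouring protein-coding genes in RefSeq, yet Gzma was the gene of this group with the lowest AKK to PBS ratio.

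Nkg7 encodes a membrane protein of cytotoxic granules that takes part in their release. PBS 1 had 0.281 CPM (15 reads), PBS 2 0.778 (37), AKK 1 1.42 (80) and AKK 2 0.736 (43). AKK 2 fell just under PBS 2, so the groups overlapped. The log2 fold change of 1.02 (SE 0.69, edgeR adjusted p = 0.494) was the largest positive value among the 9 genes in the fit of all 4 libraries. It was 0.46 without PBS 1 and 1.89 without PBS 2. Nkg7 and Prf1, both parts of the killing granule, therefore had fold changes of opposite sign. Of the reads on this pair, Prf1 held 84.5% (PBS 1), 75.3% (PBS 2), 44.8% (AKK 1) and 57.0% (AKK 2). The nearest intervals, 67.6 to 82.0% in PBS 2 and 46.7 to 66.9% in AKK 2, did not overlap, but they cover counting error only. This pair was chosen after its levels were seen. The difference between the groups was not tested, and no share over other pairs was taken.

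**Figure D2:**
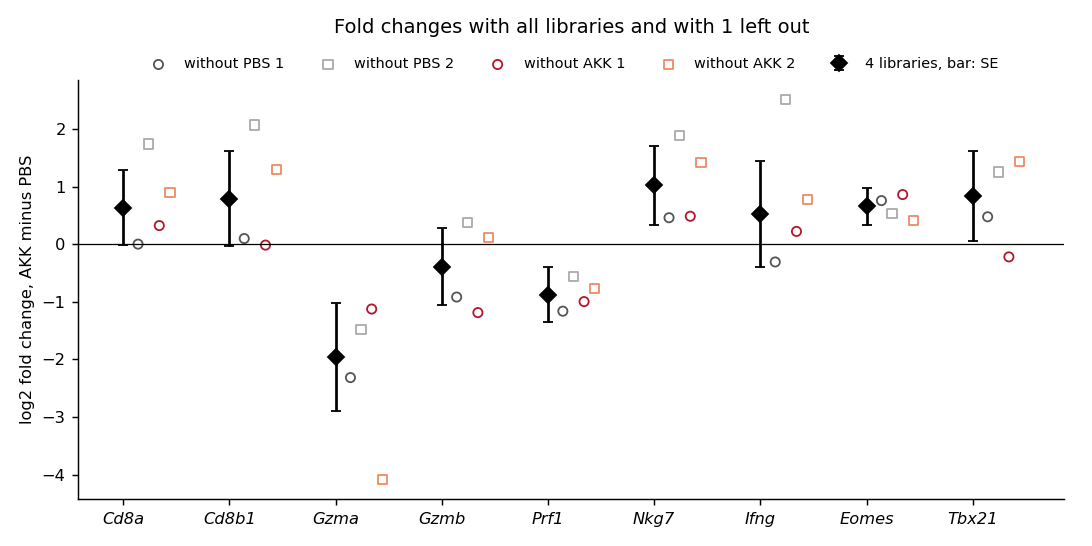
Log2 fold changes (AKK minus PBS) of the 9 genes that passed the filter. Diamonds with bars give edgeR's estimate and SE from 4 libraries, and open symbols give the estimate without 1 library. Gzma and Prf1 stay below 0 and Nkg7 and Eomes above it, while Cd8b1, Gzmb, Ifng and Tbx21 cross 0.

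The granule genes were also read relative to Cd8a within each library, which removes the scaling between libraries. Of the reads on Gzma and Cd8a, Gzma held 67.1% (PBS 1), 52.0% (PBS 2), 3.90% (AKK 1) and 32.3% (AKK 2). The Gzmb share was 63.0% and 55.7% against 44.2% and 32.3%. The Prf1 share was 61.7% and 42.2% against 22.6% and 27.1%. For all 3 genes both AKK shares lay below both PBS shares, and the intervals nearest to each other did not overlap (for Gzmb 50.3 to 61.0% in PBS 2 and 39.3 to 49.3% in AKK 1). Of all genes tested, 23.0% had a ratio to Cd8a that was lower in both AKK tumours, and 2.44% had one that was higher. Of the genes described here, only these 3 separated in this way. No share over all genes was taken for intervals that did not overlap, and the intervals cover counting error only. These shares are descriptions of 4 tumours with no test, from pairs chosen after their levels were seen. They are not a result about the 3 genes.

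The Nkg7 share against Cd8a was 22.7% and 19.3% in PBS 1 and PBS 2 and 26.5% and 21.9% in AKK 1 and AKK 2, with overlapping intervals in all 4. Ratios of Cd8b1, Gzmk, Ifng, Eomes and Tbx21 to Cd8a overlapped between the groups as well. Gzma and Gzmb were close to each other in 3 tumours, where Gzma held 54.5% (PBS 1), 46.3% (PBS 2) and 50% (AKK 2) of the reads on the pair. In AKK 1 that share was 4.86% (95% interval 2.25 to 9.03%). AKK 1 thus had Gzmb at 176 reads and Gzma at 9.

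**Figure D3:**
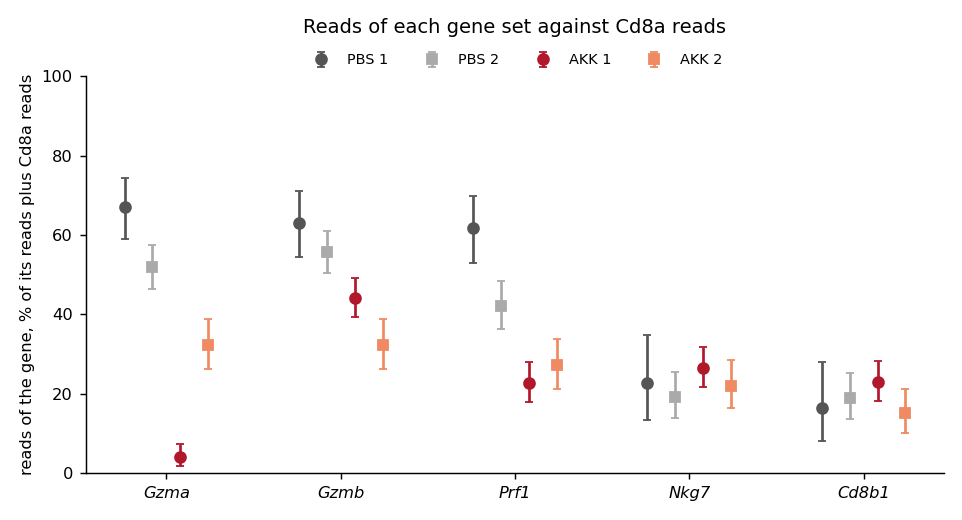
Reads of 5 genes as a percentage of their own plus Cd8a reads in each library, with exact 95% binomial intervals (counting error only). The AKK shares of Gzma, Gzmb and Prf1 are below both PBS shares, and those of Nkg7 and Cd8b1 are not.

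Ifng encodes interferon gamma, the main secreted effector of these cells. PBS 1 had 0.0562 CPM (3 reads), PBS 2 0.421 (20), AKK 1 0.407 (23) and AKK 2 0.274 (16). PBS 1 was lowest, on 3 reads, and the AKK tumours lay within the PBS range. Its log2 fold change of 0.53 (SE 0.92, edgeR adjusted p = 0.801) was -0.31 without PBS 1 and 2.52 without PBS 2. In GENCODE M21, 89.9% of the 75-base windows of the Ifng transcript occur in no other gene. The rest also occur elsewhere. The gene that shares the most of them is Gm49751, a gene model that overlaps Ifng and is not among the identifiers of the count tables.

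Tbx21 encodes T-bet, which switches on Ifng and cytotoxic genes. It read 0.131, 0.231, 0.495 and 0.154 CPM in PBS 1, PBS 2, AKK 1 and AKK 2, from 7, 11, 28 and 9 reads. AKK 1 was highest, but its interval (0.329 to 0.716 CPM) overlapped that of PBS 2 (0.115 to 0.414 CPM), and AKK 2 lay within the PBS range. Its log2 fold change was 0.84 (SE 0.78, edgeR adjusted p = 0.618) and turned to -0.22 without AKK 1.

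Eomes encodes eomesodermin, a T-box factor of memory CD8 T cells and NK cells that also acts in the early embryo. It had more reads than any other of the 10 genes in every library, at 6.37 and 5.57 CPM in PBS and 8.02 and 10.8 CPM in AKK, from 340, 265, 453 and 633 reads. Both AKK tumours lay above both PBS tumours, and the log2 fold change was 0.66 (SE 0.32, edgeR adjusted p = 0.382; DESeq2 adjusted p = 0.343). Its order across tumours was not that of Cd8a: PBS 1, the lowest library for Cd8a, was above PBS 2 for Eomes, and AKK 2 was above AKK 1. For each Cd8a read there were 6.67 Eomes reads (PBS 1), 1.71 (PBS 2), 2.04 (AKK 1) and 4.14 (AKK 2). Tbx21 held 2.02%, 3.99%, 5.82% and 1.40% of the reads on both T-box genes in the 4 tumours. Reads on the strand opposite to Eomes numbered 27, 19, 34 and 28, far fewer than those on its own strand.

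Levels of different genes can be compared only per length, here CPM per kilobase of exons in GENCODE M21. On that scale Gzma led in both PBS tumours (1.94 and 3.51). Gzmb (1.14 and 2.86) followed with an overlapping range, which also enclosed Eomes (1.53 and 1.34). Prf1 (0.595 and 0.920), Cd8a (0.263 and 0.896) and Nkg7 (0.308 and 0.851) had overlapping ranges. Cd8b1 (0.126 and 0.510) overlapped Cd8a and Nkg7 but lay below Prf1. Ifng (0.0434 and 0.325), Tbx21 (0.0527 and 0.0930) and Gzmk (0.0540 and 0) were lowest. In AKK the order began with Eomes (1.93 in AKK 1 and 2.61 in AKK 2), then Gzmb (2.17 and 0.871), Nkg7 (1.55 and 0.806) and Cd8a (1.08 and 0.720), with each range overlapping the next. Cd8b1 (0.787 and 0.312), Prf1 (0.445 and 0.378), Ifng (0.314 and 0.212), Tbx21 (0.199 and 0.0619) and Gzmk (0.127 and 0.123) followed. Gzma was at 0.158 and 1.24 per kilobase in AKK 1 and AKK 2.

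Other granule proteins formed a list of 18 genes, with 17 kept and 0 called in edgeR. DESeq2 called 2 of them, both lower, where it called 5.02% of all genes in either direction. The list had 9 positive and 8 negative fold changes and a median of 0.07. The 5 lowest values belonged to granzymes encoded beside Gzmb, and the other 3 negative genes were Srgn, Unc13d and Stx11. Gzmc read 2.68 and 2.80 CPM in PBS against 0.460 and 0.240 CPM in AKK, from 143, 133, 26 and 14 reads (log2 fold change -2.96, SE 0.54, edgeR adjusted p = 0.182, DESeq2 adjusted p = 9.16e-05). Gzmf read 2.62 and 2.54 against 0.566 and 0.223 CPM (-2.71, SE 0.60, edgeR adjusted p = 0.192, DESeq2 adjusted p = 0.00190). These 2 genes fell in DESeq2 alone among the 3 tools with the filter, and without the filter edgeR gave adjusted p of 0.0149 and 0.0297. Unlike Cd8a or Gzmb, Gzmc and Gzmf differed little between the PBS tumours.

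Gzmd reads numbered 83 and 97 for PBS against 34 and 7 for AKK (edgeR adjusted p = 0.286), those of Gzme 146 and 125 against 58 and 144, and those of Gzmg 64 and 67 against 42 and 1. These 5 granzymes, Gzmc to Gzmg, were below both PBS tumours in both AKK tumours in CPM, as were 24.7% of all genes. They were singled out after their values were seen, and together they summed to 10.8 and 11.4 CPM in PBS against 3.40 and 3.07 CPM in AKK. Gzmd, Gzme and Gzmg resemble each other: 94.3%, 95.2% and 93.2% of their 75-base windows occur in no other gene of GENCODE M21, against 100% for Gzma, Gzmb, Gzmc and Gzmf. Single values of Gzmd, Gzme and Gzmg may therefore be less certain. The windows are shorter than the 151-base reads, so the size of this effect is not known. In RefSeq the order along the chromosome is Gzme, Gzmd, Gzmg, Gzmn, Gzmf, Gzmc and Gzmb. Gzmb at the end of this row had a log2 fold change of -0.39 and AKK 1 above PBS 1. Gzmn had 0, 2, 13 and 2 reads and did not pass the filter. Gzmm, a granzyme encoded elsewhere, read 0.469 and 0.252 CPM in PBS and higher, 0.602 and 0.617 CPM, in AKK (log2 fold change 0.75, edgeR adjusted p = 0.540).

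**Figure D4:**
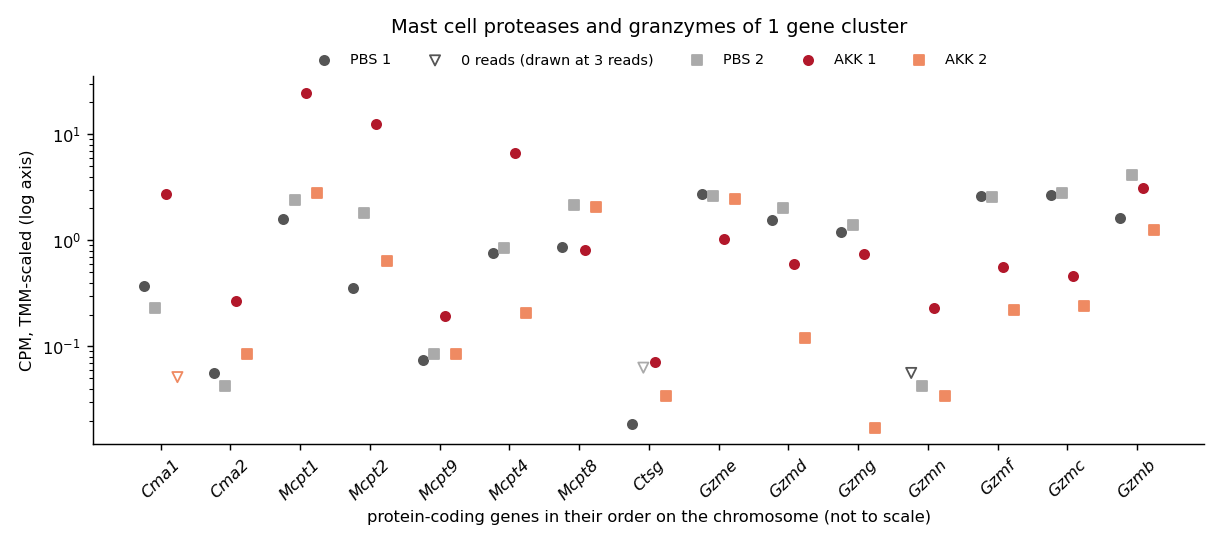
CPM (log axis) in each library of the 15 protein-coding genes from Cma1 to Gzmb, in chromosome order and not to scale. Gzmc, Gzmd, Gzme, Gzmf and Gzmg have both AKK points below both PBS points, Gzmb does not, and the mast cell proteases Mcpt1, Mcpt2 and Mcpt4 are highest in AKK 1.

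The other 11 genes of this list, which process, store and release granule proteins or inhibit granzymes, were all kept, with 8 positive and 3 negative fold changes and 0 called in edgeR or DESeq2. Serglycin (Srgn), the proteoglycan core of granules, read 27.1 and 22.3 CPM in PBS and 26.8 and 20.7 in AKK (log2 fold change -0.06). The granzyme-processing protease Ctsc read 150 and 120 against 140 and 233 CPM (0.47). Of the release genes, Unc13d, which primes granules for fusion, read 18.3 and 24 against 21.5 and 17.2 CPM (-0.13). The membrane fusion genes Stx11 (8.98 and 16.3 against 10.2 and 8.08 CPM) and Stxbp2 (69.9 and 76.5 against 95.8 and 86.1 CPM) had fold changes of -0.47 and 0.31. Many of these genes are also expressed by myeloid cells. Ctsw, a protease of cytotoxic lymphocytes, read 0.375 and 0.463 against 1.06 and 0.805 CPM (1.15, edgeR adjusted p = 0.349), and both AKK tumours lay above both PBS tumours.

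Cells that could carry these transcripts were read through marker lists. The 16 genes of the T cell receptor complex and its signalling were all kept and all positive, with a median of 0.95 and 6 of 16 above both PBS tumours in both AKK tumours, against 26.7% of all genes. 0 of them were called in edgeR or DESeq2. Their summed level was 5.94 and 10.3 CPM in PBS and 23.4 and 9.71 CPM in AKK 1 and AKK 2, so AKK 1 stood apart. Without AKK 1 the median was 0.09, with 9 positive and 7 negative. The smallest p belonged to Cd2, an adhesion receptor (0.187 and 0.231 against 1.06 and 0.445 CPM, edgeR adjusted p = 0.292), and Cd5, a brake on receptor signalling (0.112 and 0.0631 against 0.478 and 0.223 CPM, adjusted p = 0.306). Trac (0.918 and 2.00 against 3.68 and 2.53 CPM, adjusted p = 0.389) and the receptor subunit gene Cd3d (0.262 and 0.294 against 1.04 and 0.377 CPM, 0.391) came next. AKK 1, the tumour with the highest summed level of these T cell genes, was the tumour with the lowest Gzma level.

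The 11 NK cell genes (8 kept, 0 called in edgeR) summed to 117 and 122 CPM in PBS and 134 and 109 CPM in AKK, and most of this was Klra4 (99.8, 101, 116 and 93.1 CPM). Of the defining genes, Ncr1 reads numbered 5, 4, 1 and 1 across PBS 1 to AKK 2, and Klrb1c reads 18, 12, 6 and 29. Klrd1 read 0.487, 1.16, 2.55 and 0.908 CPM. Ncr1 is thus near 0 in all 4 tumours. In the list of gamma delta T cells (4 of 6 kept, summed level 33.1 to 49.0 CPM in PBS and 47.7 to 61.3 CPM in AKK, most of it Sox13), Trdc read 1.5, 0.673, 0.478 and 1.2 CPM. Tcrg-C1 read 0.862, 0.673, 0.796 and 0.719 CPM and Tcrg-C2 0.131, 0.0841, 0.212 and 0.343 CPM, so the 3 defining genes did not share an order across tumours. The part of these cells in the Gzma levels was not tested. Among type 1 dendritic cell genes, which mark cells that can carry Cd8a, 7 of 7 were kept and summed to 73.6 and 142 CPM in PBS and 59.5 and 103 CPM in AKK, most of it Cadm1 (54.0, 123, 39.1 and 89.0 CPM). Clec9a read 0.450, 1.03, 0.991 and 0.531 CPM and Batf3 0.544, 0.610, 0.991 and 0.702 CPM. Xcr1 had 10, 10, 10 and 16 reads, and 0 of the 7 were called in edgeR. Plasmacytoid dendritic cell genes had 3 of 7 kept and summed to 233 and 272 against 296 and 190 CPM, most of it Tcf4, with Siglech at 0, 2, 5 and 2 reads. Helper and regulatory T cell genes (6 of 7 kept) summed to 11.9 and 15.5 against 11.2 and 8.63 CPM, most of it Ikzf2. Ikzf2 read 8.85 and 12.1 against 3.47 and 5.12 CPM (edgeR adjusted p = 0.242, DESeq2 adjusted p = 0.0226). DESeq2 called 1 of the 6, where it called 5.02% of all genes, and edgeR called 0. The other 5 kept genes had positive fold changes, and the median of the 6 was 0.74. In the macrophage list 7 of 7 were kept, summing to 773 and 597 against 543 and 537 CPM. B and plasma cell genes (6 of 8 kept) summed to 5.19 and 5.24 against 56.6 and 24.1 CPM. Endothelial genes (6 of 6 kept) summed to 93.5 and 66.1 against 26.3 and 29.0 CPM, and fibroblast genes (8 of 8 kept) to 2095 and 755 against 923 and 1428 CPM. DESeq2, which called 5.02% of all genes, called 2 of the 6 B and plasma cell genes as higher. It called 5 of the 6 endothelial genes and 3 of the 8 fibroblast genes as lower, and 0 macrophage genes. In each of these lists edgeR called 0.

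The pathways around the 10 genes were read from lists of their ligands, receptors, regulators and targets, and edgeR called 0 genes in each of them. Death ligands and receptors had 6 of 7 positive, with a median of 0.32. Fas ligand (Fasl) read 0.262 and 0.378 against 0.425 and 0.377 CPM, and Tnf, a cytokine that can kill, 0.0937 and 0.442 against 1.10 and 0.291 CPM (edgeR adjusted p = 0.509). The TRAIL receptor gene Tnfrsf10b (log2 fold change 0.27) and Tnfsf10, which encodes TRAIL (-0.42), had adjusted p of 0.569 and 0.690. Of 14 kept transcription factors of T cells, 7 were positive and the median was 0.01. DESeq2, which called 5.02% of all genes, called 1 of the 14 as higher, Klf2, a factor of resting T cells and of endothelium (72.2 and 40.1 against 176 and 99.4 CPM, edgeR adjusted p = 0.248, DESeq2 adjusted p = 0.0444). Tox, a factor of exhausted T cells, read 1.12 and 2.57 against 0.619 and 0.805 CPM (edgeR adjusted p = 0.338), and Batf, a factor of activated T cells, 0.544 and 0.294 against 1.17 and 0.617 CPM (0.436). Inhibitory and activation receptors had 8 of 11 positive (median 0.48). DESeq2 called 1 of the 11 as lower (against the same 5.02%), Cd244a, a receptor of NK and myeloid cells as well as CD8 T cells, with levels of 6.30 and 5.00 (PBS) and 2.41 and 2.00 CPM (AKK; edgeR adjusted p = 0.242, DESeq2 adjusted p = 0.0157). Cd27, a costimulatory receptor of T cells, read 0.0937 and 0.315 against 0.973 and 0.308 CPM (edgeR adjusted p = 0.408), and Icos, another, 0.281 and 0.505 against 1.27 and 0.394 CPM (0.499).

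Interferon gamma signalling and target genes (18 kept, 9 positive, median -0.16, 0 called in DESeq2) had their lowest and highest summed levels in the PBS tumours, at 698 CPM for PBS 1 and 1731 CPM for PBS 2, with the AKK tumours at 916 and 919 CPM between them. Ifng was likewise lower in PBS 1 than in PBS 2, but on 3 reads in PBS 1. Its levels in AKK 1 and PBS 2 were close (0.407 and 0.421 CPM), while the summed target levels of these 2 tumours were not. A link between Ifng and these sums was not tested. Nlrc5, an activator of MHC class I transcription, had 34.3 and 72.4 CPM in PBS and lower values, 29.9 and 21.6 CPM, in AKK (edgeR adjusted p = 0.298). Jak1, a kinase of the receptor, read 184 and 206 against 112 and 156 CPM (0.341), and the receptor chain gene Ifngr2 50.1 and 53.4 against 62.8 and 66.9 CPM (0.414). Gbp2, an interferon-induced GTPase, read 73.5 and 574 against 73.3 and 109 CPM (0.375), with PBS 2 far above the rest. Chemokines and homing receptors had 7 of 10 kept genes positive (median 0.26, 0 called in DESeq2). Ccl3, a chemokine of activated T cells and macrophages, read 0.843 and 1.07 against 2.49 and 1.35 CPM (edgeR adjusted p = 0.404). S1pr1, the receptor for exit from lymphoid tissue, read 37.3 and 28 against 24.9 and 17.7 CPM (edgeR adjusted p = 0.341). Cytokines and receptors that drive effector cells had 6 of 13 positive (median -0.02, 0 called in DESeq2). Il2rg, the common gamma chain, read 2.12 and 1.47 against 4.39 and 2.76 CPM (edgeR adjusted p = 0.372), the receptor gene Il21r 1.16 and 1.43 against 4.23 and 1.63 CPM (0.389), and Il12rb1, a chain of the interleukin-12 receptor, 6.95 and 6.96 against 8.19 and 12.9 CPM (0.429).

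**Figure D5:**
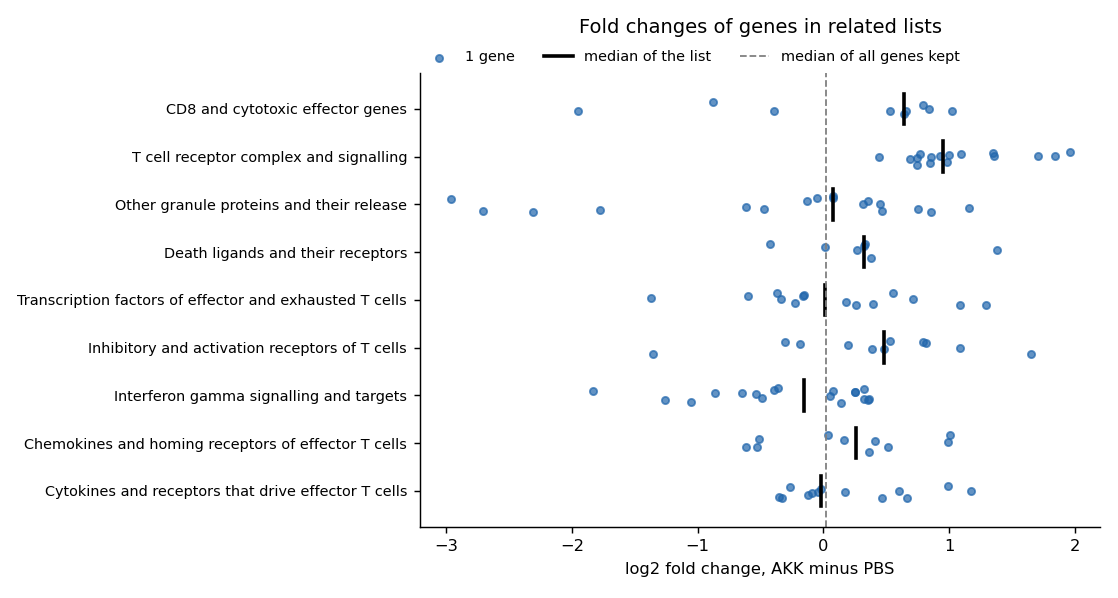
Log2 fold changes (AKK minus PBS) of the genes kept in each list, 1 point per gene, with the list's median and the median of all genes kept (0.02). T cell receptor genes all lie above 0, while granule genes spread from -2.96 to 1.15 around a median of 0.07.

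The genes most like Cd8a and Gzma over the 4 libraries were found by the root mean square distance between centred log2 CPM profiles. The 12035 candidates had a mean log2 CPM of at least 0. A small count was added before the log, which shrinks differences between libraries for genes with few reads. Nearest to Cd8a were Ifi203-ps, an interferon-inducible pseudogene (distance 0.05 on the log2 scale), Elf3, an epithelial transcription factor (0.07), Rnf128 (0.10), Osgin1 (0.11) and Hilpda, a lipid droplet protein (0.11). There were 42 candidates within 0.25, and among the 10 genes Ifng (0.20), Nkg7 (0.21) and Cd8b1 (0.25) lay nearest to Cd8a. Nearest to Gzma was Itga2, an integrin of platelets, epithelium and NK cells, at 203 and 305 CPM in PBS and 22.4 and 120 CPM in AKK (0.16). Adnp (0.34), the potassium channel gene Kcnh2 (0.35), the copper transporter gene Atp7a (0.40) and Ace (0.42) followed. Among the 8 other genes of the 10 that passed the filter, Prf1 was closest to Gzma, at a distance of 1.31, and Cd8b1 the farthest, at 2.19. With 4 libraries many genes share a profile, and these distances are descriptions without a test.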

How the data were processed

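Total RNA of liver tumours was sequenced as pairs of 151-base reads, per the labels. The authors deposited raw counts of reads for each gene, unnormalized, with unstranded and stranded columns. STAR 2.5.2 and RSEM 1.2.31 appear in the submitters' processing notes. No genome build or annotation is given in the sources used here. The own-strand column held 95.4 to 96.2% of stranded reads and was used. The rows that name no gene (27.6 to 31.4% of reads) were left out. Of 48526 identifiers, 48058 matched a symbol.

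AKK was compared with PBS in edgeR 4.0.16 (R 4.3.3; legacy quasi-likelihood fit, TMM, filterByExpr, group only, two-sided). Fold changes are AKK minus PBS, and SEs were derived from the F statistic. Alternatives were DESeq2 1.42.0, limma-voom (limma 3.58.1), DESeq2 size factors, other filters, unstranded counts, a replicate block and each library left out. The tests were checked on simulated data. Binomial intervals are exact (Clopper-Pearson). The labels call the samples biological replicates but name no animals. That each library is a separate tumour is therefore a reading of this label. The p-values measure only how far these samples differ, and part of that may be technical.

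The 10 genes and 21 further lists were chosen with earlier results of these data known, and the pairs set against each other were chosen after their levels were seen. The naming rule takes all 10 genes, the 3 genes with the smallest edgeR p in each pathway list (4 where 15 or more were kept), the first 3 genes of marker lists, of which those nearest these cells are printed, and the 5 profiles nearest to Cd8a and to Gzma. 1 gene that this rule takes is not reported here. Other genes named were chosen after their values were seen.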

Additional observations from a re-analysis of the deposited data

How the results depend on the processing

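Under the 11 alternatives 0 of the 10 genes were called by any tool, and the smallest adjusted p was 0.152 (Gzma without AKK 2, edgeR). The directions of Gzma, Prf1, Nkg7 and Eomes were the same in each alternative that kept them. Cd8a kept its sign as well, but its log2 fold change was only 0.0019 without PBS 1, which is no direction. Those of 4 genes reversed with 1 library left out. The log2 fold change of Cd8b1 ran from -0.0147 (without AKK 1) to 2.07 (without PBS 2), and that of Gzmb from -1.19 (without AKK 1) to 0.38 (without PBS 2; 0.11 without AKK 2). That of Ifng ran from -0.31 (without PBS 1) to 2.52 (without PBS 2), and that of Tbx21 from -0.22 (without AKK 1) to 1.44 (without AKK 2). The cause was not tested. Gzmk entered only without a filter on low counts (log2 fold change 2.10, adjusted p = 0.553) or without 1 PBS library.

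Over all genes, where edgeR called 1, it called 631 without a filter, DESeq2 called 878 and limma-voom 0, and leaving out 1 library gave 0 (without AKK 1 or AKK 2), 279 (without PBS 1) or 324 (without PBS 2). Each of these leaves 1 tumour in a group, assumed to vary like the other group. The log2 ratio of the mean summed CPM of the 10 genes (0.18) ran from -0.12 to 0.56 with 1 library left out. All 48 shares stayed within their intervals with unstranded counts. Those counts hold nearly the same reads of these genes, so this check could hardly have come out otherwise. With the replicate number as a replicate block, edgeR called 209 genes and 0 of the 10, with Klf2 at an adjusted p of 0.0482. Same-numbered libraries deviated with a correlation of -0.02 over 17479 genes, so the numbers gave no sign of pairing. Depth limits Gzmk, Ifng and Tbx21 most, with 0 to 28 reads per library.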

Other observations

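The gene cluster that ends in Gzmb also holds the mast cell proteases, and these were high in 1 tumour. Mcpt1, a chymase of mucosal mast cells, had 84 and 115 reads in PBS 1 and PBS 2 and 1379 and 164 in AKK 1 and AKK 2 (log2 fold change 2.77, edgeR adjusted p = 0.288, DESeq2 adjusted p = 0.0189). Mcpt2 had 19, 87, 707 and 37 reads, Mcpt4, a chymase of connective tissue mast cells, 41, 40, 373 and 12, and Cma1 20, 11, 154 and 0. Mcpt8, a protease of basophils in the same row, had 46, 103, 46 and 120 reads and did not share the high AKK 1 value. Cpa3, a carboxypeptidase of mast cells outside this cluster, had 29, 14, 155 and 11 reads. Of 9 mast cell genes, 8 passed the filter, edgeR called 0 and DESeq2 1 (as higher), where 5.02% of all genes were called.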
